A study of Homo sapiens with 8 samples.

Results

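The SR splicing factor family was examined as 10 genes, SRSF1, SRSF2, SRSF3, SRSF4, SRSF5, SRSF6, SRSF7, SRSF9, SRSF10 and SRSF11, out of 22678 genes with a symbol. They were chosen by name, with earlier results of these data known. The family was measured by 25 RefSeq transcript rows, of which 20 were coding (NM accessions) and 5 noncoding (NR accessions), and the NR rows belonged to SRSF1, SRSF2, SRSF3, SRSF6 and SRSF10. RNA-seq was done on A498 and 786-O, established cell lines of clear cell renal cell carcinoma (ccRCC), the most common kidney cancer. In each cell line, 2 libraries came from cells transfected with non-targeting control siRNA (NTC), and 1 library each from cells transfected with siRNA #1 and siRNA #2 against the lincRNA SLINKY, so that the siRNAs stood as the 2 replicates of the knockdown. All siRNAs were used at 50 nM for 16 hr, and the labels describe them as pools. The study's methods differ, giving a single sequence for each SLINKY siRNA and a pool for the NTC siRNA. They also place RNA isolation later than 16 hr after transfection. A498 cells were grown in DMEM and 786-O cells in RPMI-1640, so that the cell line and its medium cannot be told apart. Nothing in the labels says that libraries of a group came from separate cultures, and p-values then measure only the spread between these libraries, which may be technical.

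SR proteins bind exonic enhancers in pre-mRNA through RNA recognition motifs and recruit the spliceosome through an arginine- and serine-rich (RS) domain. Phosphorylation of that domain by SRPK and CLK kinases sets where the proteins sit in the nucleus and when they act. Most SR genes also regulate themselves. When the protein is abundant, an alternative exon with an early stop codon (a "poison" or decay exon) or a 3′ UTR intron is spliced so that the transcript becomes a substrate of nonsense-mediated decay (NMD). RefSeq lists many transcripts of this kind under NR accessions, that is, as forms that are not expected to encode the full protein.

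A decay exon each of SRSF3 and SRSF6 is shown because these genes carried the largest NR shares. Both were read from the GRCh37 (hg19) genome on the plus strand, from the last 20 intron bases to the early stop codon, which is in capitals. In the GENCODE release 44 annotation, an NMD transcript of SRSF3 includes the exon chr6:36567598-36568053 of 456 bp, in which 31 coding bases are followed by the stop. This leaves 124 codons in place of the 164 of the longest coding form, with 548 bases between the stop and the last exon junction. Another NMD transcript of SRSF3 includes a different decay exon, chr6:36566206-36566303 of 98 bp, which is not shown. The NMD transcript of SRSF6 includes the exon chr20:42087793-42088060 of 268 bp, with 149 coding bases before the stop. It leaves 135 codons in place of 344, with 534 bases to the last junction. The deposited rows give no exons, so the NR rows were not matched to these exons.
SRSF3 decay exon: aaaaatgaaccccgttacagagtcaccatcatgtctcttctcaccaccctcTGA
SRSF6 decay exon: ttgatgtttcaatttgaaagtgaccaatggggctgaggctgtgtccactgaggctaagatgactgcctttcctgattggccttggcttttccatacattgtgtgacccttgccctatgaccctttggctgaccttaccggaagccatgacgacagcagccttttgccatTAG

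Levels were FPKM values, which count fragments by the kilobase of a transcript relative to all mapped reads and can be compared between genes. Depth estimated from rows with a single read was 25100000 to 53100000 mapped reads in A498 and 36300000 to 64700000 in 786-O. SLINKY, the knockdown target, was 89.3% and 80.3% below the NTC mean in A498 with siRNA #1 and #2, and 96.0% and 58.2% below it in 786-O. Its level in the NTC libraries was 14.6 and 16.1 FPKM in A498 but only 1.45 and 1.39 FPKM in 786-O. The 786-O percents thus rest on low values. Of 6 kidney epithelium markers, 5 had a mean of at least 1 FPKM, and of the 5 ccRCC markers with a value 4 had, with CA9 at 0 to 0.559 FPKM, while NDUFA4L2 was not analysed here. No immune or endothelial marker reached that mean, and PTPRC and CD3E were at 0. Of 4 fibroblast markers only COL1A1 did, and the summed fibroblast level was 2.96 to 3.46 FPKM in A498 and 0.270 to 0.356 FPKM in 786-O.

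All 10 SR genes were well above the minimum of 1 FPKM, so that no member was lost to the filter. SRSF2 had the highest level in both cell lines, followed by SRSF9 and SRSF3. The means over the 4 libraries of A498 were 127.8 ± 4.84 FPKM (SD, n = 4) for SRSF2, 96.6 ± 2.43 for SRSF9 and 84.9 ± 3.41 for SRSF3, and their ranges did not overlap. In 786-O the same genes were at 165.9 ± 5.25, 148.7 ± 3.66 and 131.9 ± 2.12 FPKM (SD, n = 4), again without overlap. SRSF7 and SRSF1 followed in both cell lines, at 48.0 and 45.0 FPKM in A498, where they overlapped, and at 75.9 and 57.2 FPKM in 786-O, where they did not. The other 5 genes lay between 20.4 and 32.9 FPKM in A498 and between 29.0 and 45.2 FPKM in 786-O. Among these, SRSF5 overlapped SRSF10 and SRSF10 overlapped SRSF11 in A498, SRSF10 overlapped SRSF4 in 786-O, and the lowest pair in each cell line (SRSF4 and SRSF6 in A498, SRSF11 and SRSF6 in 786-O) overlapped as well. Summed over the 10 genes, the family was at 504 to 547 FPKM in A498 and 747 to 776 FPKM in 786-O.

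**Figure D1:**
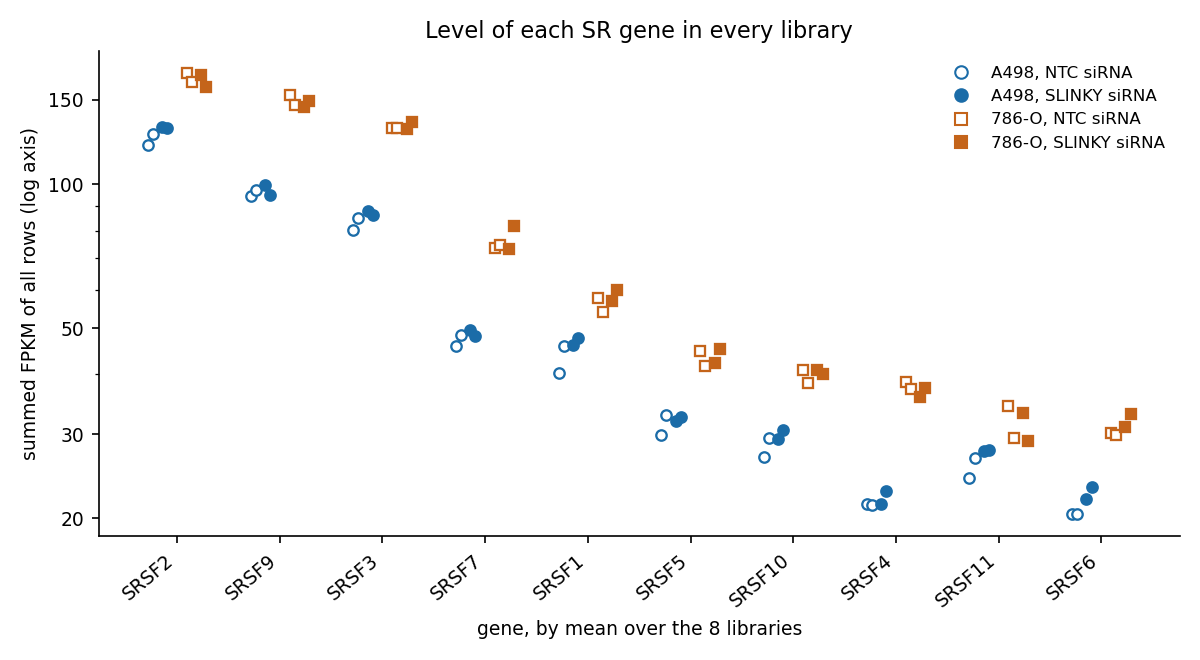
Summed FPKM of each SR gene (log axis) in the 8 libraries, with circles for A498, squares for 786-O, open symbols for NTC and filled symbols for SLINKY siRNA. In each of the 10 genes all 4 circles lie below all 4 squares, while open and filled symbols of a cell line lie close together.

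The first comparison asked how the family differed between the cell lines. All 10 SR genes were lower in A498, by 0.24 (SRSF11) to 0.78 (SRSF4) on the log2 scale, with limma adjusted p-values from 3.14e-06 to 0.0188. In every one of them each A498 library lay below each 786-O library. The cell lines differed widely, however. Of the 11367 genes tested, 79.5% passed the test, 40.9% were called lower in A498, and 38.9% had every A498 library below every 786-O library. The median difference of the 10 members was -0.49 against -0.02 over all genes tested, and the members stood at the 14.8th to 37.9th percentile of all differences. In bulk RNA a difference in FPKM is one of relative abundance, and fewer cells that express a gene cannot be told apart from less RNA per cell.

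SRSF3 and SRSF7 encode small SR proteins that also serve as adaptors for mRNA export. SRSF3 (chr6:36562090-36572244) was at 80.1 and 85.0 FPKM in the A498 NTC libraries, 88.1 and 86.3 with siRNA #1 and #2, 131.0 and 131.1 in the 786-O NTC libraries, and 130.4 and 135.0 with the siRNAs. The cell lines did not overlap, and the knockdown libraries lay close to the NTC libraries. The fitted difference was -0.64 (SE 0.034, limma adjusted p = 4.9e-06). SRSF7 (chr2:38970741-38978636) ranged from 45.9 to 49.6 FPKM in A498 and from 73.4 to 81.8 FPKM in 786-O, a difference of -0.66.

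SRSF1, SRSF4, SRSF5, SRSF6 and SRSF9 share a tandem of RNA recognition motifs, the second of them atypical. SRSF1 (chr17:56078280-56084707), the founding member and a regulator of 5′ splice site choice, was at 40.3 to 47.7 FPKM in A498 and 54.0 to 60.1 FPKM in 786-O, a difference of -0.35. SRSF4 (chr1:29474250-29508637) was at 21.4 and 21.3 FPKM in the A498 NTC libraries, 21.4 and 22.8 with siRNA #1 and #2, 38.5 and 37.2 in the 786-O NTC libraries, and 35.9 and 37.4 with the siRNAs. It showed the largest difference of the family, 1.71-fold with a 95% interval of -0.87 to -0.68 on the log2 scale. SRSF6 (chr20:42086504-42092244) was at 20.4 and 20.5 FPKM in the A498 NTC libraries, 22.0 and 23.3 with the siRNAs, 30.2 and 29.9 in the 786-O NTC libraries, and 31.0 and 33.1 with the siRNAs, a difference of -0.53. SRSF5 (chr14:70233829-70238722) ranged from 29.9 to 32.9 FPKM in A498 and from 41.7 to 45.2 in 786-O, a difference of -0.45. SRSF9 (chr12:120899471-120907558) ranged from 94.3 to 99.6 FPKM in A498 and from 145.2 to 153.5 in 786-O, a difference of -0.62. The annotation of SRSF9 overlaps that of GATC, whose higher row was at 7.04 to 8.60 FPKM over the 8 libraries.

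SRSF2 has a single RNA recognition motif and marks the nuclear speckles, where splicing factors are stored. SRSF2 (chr17:74730197-74733493) ranged from 121.0 to 131.4 FPKM in A498 and from 159.6 to 170.9 in 786-O, a difference of -0.38. SRSF10 (chr1:24292937-24306953), which turns into a splicing repressor when dephosphorylated, ranged from 26.8 to 30.6 FPKM in A498 and from 38.4 to 41.0 in 786-O, a difference of -0.46. SRSF11 (chr1:70671365-70717701), a more distant member, had the smallest difference. It was at 24.3 and 26.8 FPKM in the A498 NTC libraries, 27.7 and 27.8 with the siRNAs, 34.4 and 29.5 in the 786-O NTC libraries, and 33.3 and 29.0 with the siRNAs. The closest libraries of the cell lines were 27.8 and 29.0 FPKM. The SRSF11 difference of -0.24 (SE 0.072, limma adjusted p = 0.0188) lost its call when NTC 1 of either cell line, siRNA #1 of either cell line or siRNA #2 of A498 was left out (limma adjusted p from 0.0558 to 0.0669) and in the NTC libraries alone (0.0581). Over the 17 alternatives its limma adjusted p ranged from 0.00778 to 0.0669.

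**Figure D2:**
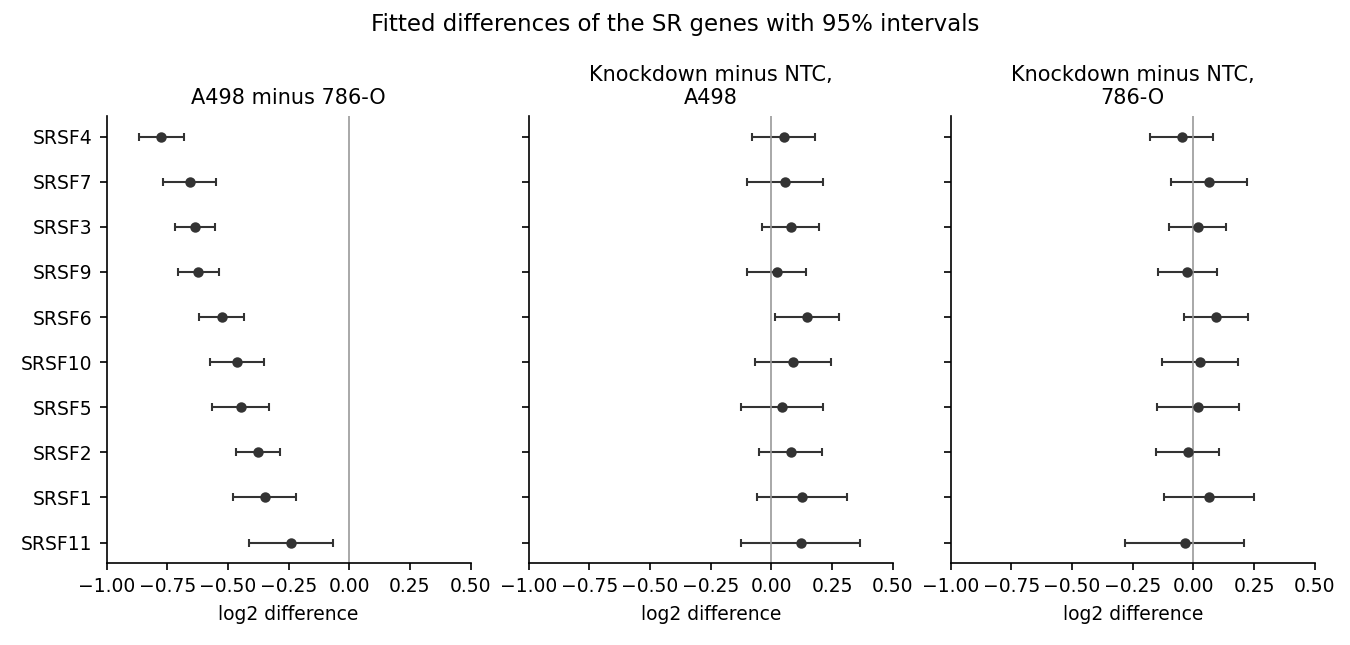
Fitted log2 differences of the 10 SR genes with their 95% intervals from limma, for A498 minus 786-O (left), knockdown minus NTC in A498 (middle) and knockdown minus NTC in 786-O (right). All 10 intervals lie below 0 on the left, while in the knockdown panels only the interval of SRSF6 in A498 stays above 0.

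Single transcript rows were compared next, to see whether coding and noncoding forms moved alike. Of the 24 member rows tested, 11 passed the test between the cell lines, 10 of them lower in A498 against 32.2% of all 14803 rows, and 1 higher in A498 against 31.4% of all rows. The row that was higher was the NR row of SRSF3. The 10 rows that were lower were the coding rows of SRSF3, SRSF4, SRSF6 and SRSF9, both coding rows of SRSF2 and of SRSF7, and 1 coding row each of SRSF1 (NM_006924) and SRSF5 (NM_006925). SRSF10 and SRSF11, which passed as genes, had no row that passed. Of the SRSF7 rows, NM_001031684 lost its call without A498 NTC 1, A498 siRNA #2 or 786-O siRNA #2 (limma adjusted p 0.0504 to 0.0631, range over the alternatives 0.00958 to 0.0958). The minor coding row of SRSF5 (NM_001039465), at 2.13 to 3.61 FPKM in A498 and 2.01 to 2.50 FPKM in 786-O, passed without A498 NTC 2 (limma adjusted p = 0.0387, range 0.0387 to 0.588), as did NM_001191006 of SRSF10 (0.0217, range 0.0166 to 0.339). The remaining row, the NR row of SRSF1 (NR_034041), was at 0.00 FPKM in the 8 libraries and was not tested.

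The coding row of SRSF3 was at 72.0, 76.7, 78.6 and 77.2 FPKM in A498 (NTC 1, NTC 2, siRNA #1, siRNA #2) and at 124.5, 124.7, 123.8 and 128.1 FPKM in 786-O. It was lower in A498 by a fitted -0.72 (SE 0.033, limma adjusted p = 1.86e-05). The NR row of SRSF3 (NR_036610) was at 8.10, 8.20, 9.44 and 9.08 FPKM in A498 and at 6.53, 6.41, 6.60 and 6.91 FPKM in 786-O, the opposite order and again with no overlap. Its difference was 0.39 (SE 0.042, limma adjusted p = 0.00054), and it passed under each of the 14 alternatives. Its Cufflinks interval was as wide as the counting error of 437 to 822 reads per library. GENCODE lists 5 pseudogenes of SRSF3, with which reads of 36 bp may have been shared.

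The coding row of SRSF6 was at 14.1, 14.6, 15.0 and 16.2 FPKM in A498 and at 23.7, 24.6, 25.7 and 26.7 FPKM in 786-O, a difference of -0.75 (SE 0.044, limma adjusted p = 4.59e-05). The NR row of SRSF6 (NR_034009) was at 6.33, 5.81, 6.98 and 7.14 FPKM in A498 and at 6.48, 5.26, 5.31 and 6.35 FPKM in 786-O, so that the cell lines overlapped. Its difference of 0.17 (SE 0.096) had a limma adjusted p of 0.188. GENCODE lists 2 pseudogenes of SRSF6.

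The share of a gene's summed FPKM that lay in its NR row was therefore higher in A498 for both genes. For SRSF3 the NR share was 10.1%, 9.66%, 10.7% and 10.5% in A498 and 4.98%, 4.89%, 5.06% and 5.11% in 786-O. The means were 10.3% ± 0.471 and 5.01% ± 0.0972 (SD, n = 4). For SRSF6 it was 31.0%, 28.4%, 31.8% and 30.6% in A498 and 21.5%, 17.6%, 17.1% and 19.2% in 786-O, with means of 30.4% ± 1.44 and 18.8% ± 1.97 (SD, n = 4). Neither gene's shares overlapped between the cell lines. For the other genes with both kinds of row, the frequency of such a separation was not computed. In an exact permutation test that exchanged the cell line labels within NTC and within knockdown libraries, both differences gave a two-sided p of 0.0556, the smallest that the 36 arrangements allow, and 0.111 after adjustment over the 4 shares tested. This design could therefore not reach 0.05 by permutation.

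The ratio of NR to NM FPKM was tested with limma over 361 genes. In these the NM and NR sums both had a mean of at least 1 FPKM, and 3.6% passed between the cell lines. SRSF3 passed, with a log2 ratio higher in A498 by 1.11 (SE 0.17, 95% interval 0.68 to 1.53, limma adjusted p = 0.0306). SRSF6 did not pass, at 0.91 (SE 0.18, limma adjusted p = 0.0621). Both SEs draw on the spread of the other ratios as well as on the gene's own. The SRSF3 value itself moved little over the 14 alternatives, from 1.06 to 1.13, but its limma adjusted p ranged from 0.00297 to 0.230 and passed in 4 of them. Leaving out any 1 of the 8 libraries took it above 0.05, to 0.0683 to 0.135.

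**Figure D3:**
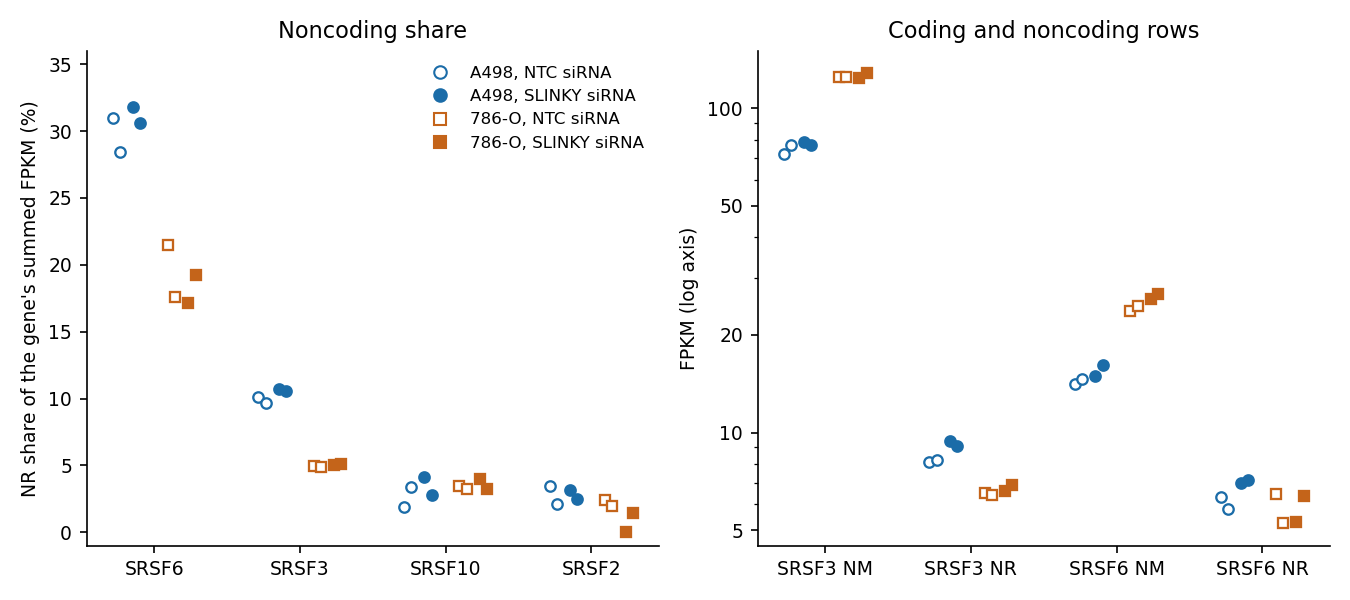
Left, the share of each gene's summed FPKM in its NR row (%) for the 4 SR genes with an NR row above 0, and right, FPKM (log axis) of the coding (NM) and noncoding (NR) rows of SRSF3 and SRSF6, with symbols as in the plot of levels. In SRSF3 and SRSF6 the A498 circles lie above the 786-O squares in share, the coding rows order the cell lines the other way, and only the NR row of SRSF3 is separated with A498 on top.

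The other NR rows were lower and less stable. For SRSF2 the NR row (NR_036608) was at 4.20, 2.65, 4.20 and 3.26 FPKM in A498 and at 4.10, 3.20, 0.00 and 2.31 FPKM in 786-O, where the value of 0.00 was that of siRNA #1. The cell lines overlapped, and the difference of 1.42 (SE 1.00) had a limma adjusted p of 0.263. Without that library it was 0.27, and in the NTC libraries alone it was -0.11 (limma adjusted p = 0.783). Without 786-O siRNA #2 it was 2.56, but the value of 0.00 was then the only 786-O knockdown library and added nothing to the spread. The NR share of SRSF2 was 2.81% ± 0.639 in A498 and 1.45% ± 1.04 in 786-O (SD, n = 4; exact permutation p = 0.111).
For SRSF10 the NR row (NR_034035) was at 0.502, 0.991, 1.22 and 0.863 FPKM in A498 and at 1.41, 1.24, 1.64 and 1.29 FPKM in 786-O, a difference of -0.64 (SE 0.25) with a limma adjusted p of 0.067. Without A498 NTC 2 it was -0.85 and passed (limma adjusted p = 0.0177, range 0.0177 to 0.164). Its share of 3.05% ± 0.960 and 3.48% ± 0.378 (SD, n = 4; exact permutation p = 0.444) overlapped between the cell lines. In the NTC libraries of 786-O, Cufflinks gave intervals for this row of 0 to 4.26 and 0 to 7.10 FPKM, so that these values were poorly determined.

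The second comparison asked whether SLINKY knockdown changed the family. No SR gene passed the test over both cell lines, where 0.167% of the genes tested passed. Without genes under 200 bp, 1 of 10973 genes passed in place of 19 of 11367, and again 0 members. By limma, 1 of the 10 members had an unadjusted p under 0.05, against 9.56% of all genes. This was SRSF6, with a difference of 0.12 (95% interval 0.03 to 0.21, limma adjusted p = 0.491). It was higher in both knockdown libraries than in both NTC libraries of its cell line, in A498 and in 786-O. How many of all genes separated in this way was not computed. The 95% intervals of the 10 members reached from 0.914-fold (SRSF11) to 1.17-fold (SRSF1), so that larger changes common to both siRNAs and cell lines lay outside them. The median of the members was 0.05 against 0.01 over all genes tested.

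Within the cell lines, 0 of 10 members passed in A498 (background 0.114%; 1 member with an unadjusted limma p under 0.05) and 0 of 10 in 786-O (background 0.0792%; 0 members). Without genes under 200 bp, 1 gene passed in A498 and 0 in 786-O, out of 10973. In A498 all 10 fitted differences were above 0, from 0.02 (SRSF9) to 0.15 (SRSF6), with a median of 0.08 against 0.01 over all genes. The second A498 NTC library stood in a like relation to the first, with 9 of 10 members higher and a median log2 difference of 0.08. In 786-O, 6 of 10 were above 0, from -0.05 (SRSF4) to 0.09 (SRSF6). The intervals within a cell line were wider, up to 1.29-fold in A498 and down to 0.823-fold in 786-O, both for SRSF11. The difference between the knockdown effects of the cell lines, tested as an interaction, passed in 0 of 10 members (background 0.141%; 0 with an unadjusted limma p under 0.05). Its widest interval, for SRSF11, reached 1.42-fold.

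Each siRNA library was also set against the NTC mean of its cell line with a threshold of 0.32 on the log2 scale, the fold change used in the study. With a single library per siRNA and cell line no test was possible. No SR gene passed that threshold with siRNA #1 or #2 in A498, where 5.57% and 7.41% of all genes did, or with siRNA #1 or #2 in 786-O, where 7.54% and 5.77% did. The largest member values were 0.19 for SRSF6 with siRNA #2 in A498 and 0.14 for SRSF7 with siRNA #2 in 786-O, both on the log2 scale. Between the NTC libraries, the members differed by as much as 0.19 (SRSF1 in A498) and -0.22 (SRSF11 in 786-O).
This held for levels summed per gene. When the 24 rows were taken singly, an alternative chosen after seeing the data, 5 and 8 member rows passed the threshold with siRNA #1 and #2 in A498, against 20.2% and 24.1% of all rows, and 7 and 8 in 786-O, against 21.8% and 20.4%. In all 4 siRNA libraries, 1 member row was higher past the threshold, against 0.5% of all rows. This was NM_004768 of SRSF11, with log2 differences of 0.80 and 1.77 in A498 and 2.59 and 1.55 in 786-O (siRNA #1 and #2).

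Among single rows, 0 of 24 passed the test of the knockdown over both cell lines, where 0.108% of all rows did. By limma, 5 of the 24 had an unadjusted p under 0.05, against 6.82% of all rows, and rows of 1 gene share reads. These were both rows of SRSF11, the minor coding row of SRSF2, the NR row of SRSF3 and the coding row of SRSF6. For SRSF2 this row (NM_003016) was at 9.39 and 9.16 FPKM in the A498 NTC libraries against 11.6 and 12.1 with the siRNAs, and at 12.9 and 11.2 FPKM in the 786-O NTC libraries against 13.8 and 13.4, a difference of 0.26 (SE 0.056, limma adjusted p = 0.531). The NR row of SRSF3 differed by 0.12 (SE 0.042, limma adjusted p = 0.713). In the ratio of NR to NM, 0 of the 4 members passed (background 0%), and by limma 0 of them had an unadjusted p under 0.05, as 14 of all 361 genes did. The ratio of SRSF3 differed by 0.08 (95% interval -0.34 to 0.50) and that of SRSF6 by -0.01 (95% interval -0.46 to 0.43) between knockdown and NTC.

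The rows of SRSF11 had fitted differences of opposite sign. NM_004768 was at 6.71 and 4.77 FPKM in the A498 NTC libraries, 10.1 and 19.7 with siRNA #1 and #2, 4.74 and 2.75 in the 786-O NTC libraries, and 23.1 and 11.2 with the siRNAs. NM_001190987 was at 17.6 and 22.0 FPKM in the A498 NTC libraries, 17.7 and 8.02 with the siRNAs, 29.7 and 26.7 in the 786-O NTC libraries, and 10.1 and 17.9 with the siRNAs. With siRNA #1 in A498, NM_001190987 thus lay within the range of the NTC libraries. The share of NM_004768 in SRSF11 was 27.7% and 17.8% (NTC) against 36.3% and 71.1% (siRNA #1 and #2) in A498, and 13.8% and 9.34% against 69.5% and 38.5% in 786-O, so that every knockdown library lay above every NTC library. This separation was seen after the fact, and its frequency among all genes with several rows was not computed. The fitted differences of 1.71 (SE 0.36) for NM_004768 and -0.89 (SE 0.31) for NM_001190987 had limma adjusted p-values of 0.531 and 0.713. Their sum differed by 0.04. In 786-O NTC 1, Cufflinks gave NM_004768 an interval of 0 to 37.6 FPKM, so that the split was poorly determined in this library.

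The split between coding rows also differed between libraries of 1 group in SRSF7 and SRSF10. The share of NM_001195446 in SRSF7 was 54.3% and 51.2% in the A498 NTC libraries and 60.4% and 42.5% in those of 786-O, and it was 46.2% and 49.6% with the siRNAs in A498 and 55.4% and 45.2% in 786-O. Among the 6 coding rows of SRSF10, NM_001191007 took from 14.5% to 58.2% of the gene, both in 786-O, and NM_001191009 from 0.00% to 25.9%. A further 7 SRSF10 rows placed on an unplaced contig were at 0 in the 8 libraries. The summed level of SRSF10 meanwhile kept within 26.8 to 30.6 FPKM in A498.

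**Figure D4:**
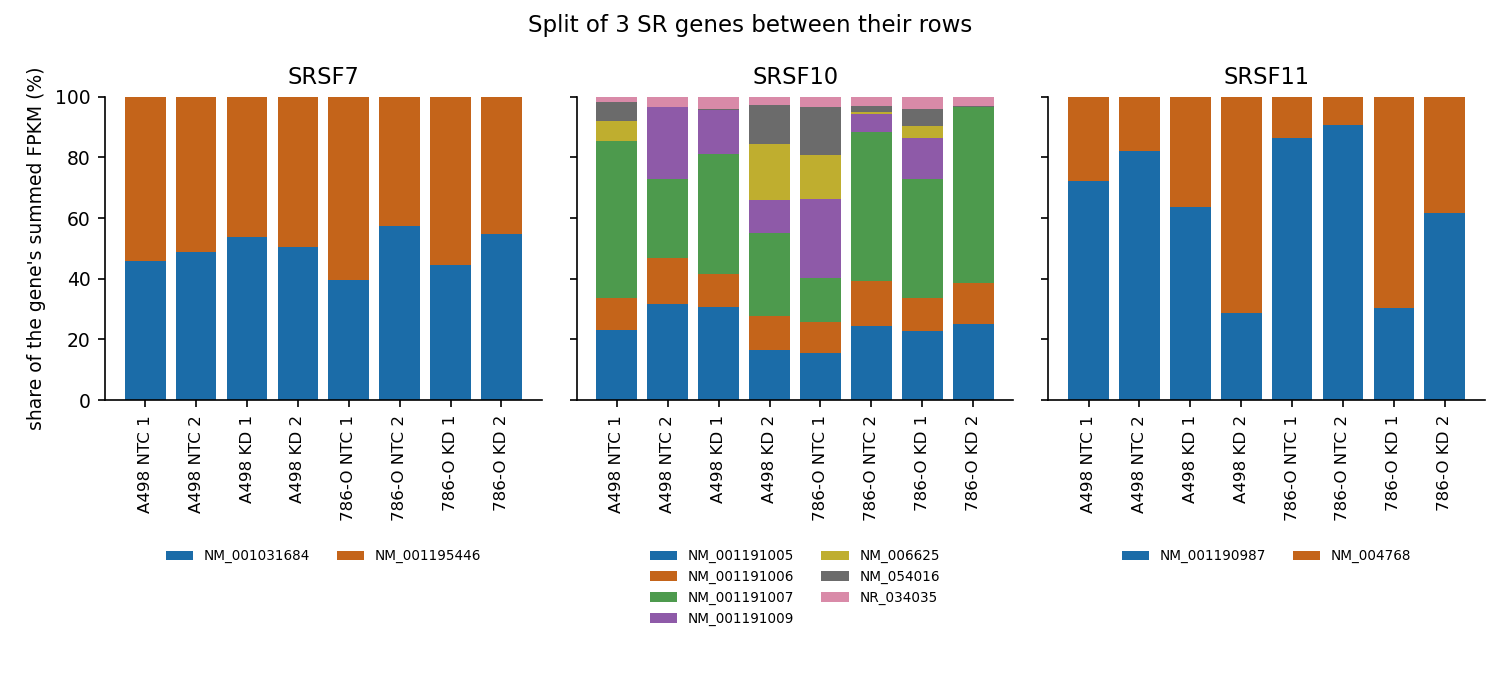
Share of the summed FPKM of SRSF7, SRSF10 and SRSF11 (%, stacked to 100) held by each RefSeq row in the 8 libraries, where KD 1 and KD 2 are siRNA #1 and #2. The SRSF11 row NM_004768 takes 9.34% to 27.7% in NTC libraries and 36.3% to 71.1% in knockdown libraries, and the shares of the SRSF10 rows differ between libraries of the same group.

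Genes that act with the SR family were examined as lists. Of 15 SR-related proteins tested, 1 was higher and 8 were lower in A498 (median -0.14). The largest differences were -0.77 for SRRM1, a splicing coactivator, -0.73 for TRA2B, an SR-like splicing activator, and -0.68 for SRSF8, a close relative of SRSF2. TRA2B was at 26.5 to 30.1 FPKM in A498 and 45.3 to 50.5 FPKM in 786-O. SRSF12 was below 0.0182 FPKM and was not tested.

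Of 10 kinases and other genes of SR phosphorylation and transport tested, 3 were higher and 4 lower in A498 (median -0.06). SRPK1, the main cytoplasmic SR kinase, was lower, at 13.6 ± 0.918 FPKM in A498 and 18.0 ± 1.02 in 786-O (SD, n = 4), a difference of -0.41. TNPO3, the importin of phosphorylated SR proteins, differed by -0.54 and the phosphatase subunit PPP1CA by -0.60. The nuclear kinase CLK4 was higher by 0.52, while CLK1, at 13.7 and 13.1 FPKM, differed by 0.07 (limma adjusted p = 0.283). SRPK3 was below 0.0964 FPKM, and PRPF4B was not analysed here.

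Of 10 partners at the 3′ splice site and in the U1 particle, 2 were higher and 5 lower in A498 (median -0.14), led by SNRPA of U1 at -0.76, the branch point protein SF1 at -0.65 and ZRSR2, of the minor spliceosome, at 0.56. Of 16 NMD genes, 2 were higher and 10 lower (median -0.58). PNRC2, a decapping adaptor, differed by -1.41, at 12.7 ± 0.865 FPKM in A498 and 33.9 ± 2.84 in 786-O (SD, n = 4). UPF2, a core NMD factor, differed by -0.89, and SMG8, which restrains the NMD kinase SMG1, by 0.94. The part of the 12 NMD genes that passed in the higher NR shares of SRSF3 and SRSF6 in A498 was not tested. In these lists 9 of 15, 7 of 10, 7 of 10 and 12 of 16 genes were called, against 79.5% of all genes. Called lower in A498 were 8 of 15, 4 of 10, 5 of 10 and 10 of 16, against 40.9% of all genes.

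In the knockdown comparisons none of the 4 lists had a gene that passed, in both cell lines together, in either one or in the interaction. By limma over both cell lines, an unadjusted p under 0.05 was found in 0 of 15 SR-related proteins, 1 of 10 kinases and transport genes, 1 of 10 splice site partners and 4 of 16 NMD genes, against 9.56% of all genes, of which 0.167% passed after adjustment. SRPK1 differed by 0.14 (SE 0.042, limma adjusted p = 0.476) and CLK1 by 0.11 (SE 0.054, limma adjusted p = 0.552). DYRK1A (0.12) and PPP1CA (-0.07) had the next lowest p-values of that list. The lowest p-values of the other lists were those of SRRM1 (0.14), SCAF1 (-0.17) and TRA2B (0.10) among the SR-related proteins, of SNRNP70 (-0.14), PUF60 (-0.11) and SF3B1 (0.11) among the partners, and of SMG9 (-0.16), SMG5 (-0.11) and PNRC2 (0.15) among the NMD genes, with limma adjusted p-values of 0.506 to 0.536.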

How the data were processed

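Libraries were made from total RNA with the Illumina TruSeq RNAseq kit, and strand was not stated. Per the labels, the authors mapped 36 bp single-end reads to hg19 with TopHat2 2.0.0 and computed FPKM with Cufflinks 2.0.2 in each of 8 libraries, with a 95% interval. The deposited FPKM tables hold 75378 entries, of which 43150 are RefSeq transcripts. Cufflinks shares the reads of overlapping rows out between those rows.

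RefSeq entries were matched to current symbols (96.6%) and summed per symbol. Genes and rows with a mean of at least 1 FPKM (11367 and 14803) were tested as log2(FPKM + 0.1) with limma 3.58.1 in R 4.3.3, with a variance trend and Benjamini-Hochberg adjustment at 0.05. The model held the 4 groups of cell line and siRNA. Ratios were log2((NR + 0.1)/(NM + 0.1)) for the 361 genes whose NM and NR sums both averaged at least 1 FPKM. Fold changes on this scale understate the change of low genes. The fits were tested on simulated data with 200 changed genes. Of these, 81 were recovered between the cell lines and 84 under knockdown at 1.25-fold. At 2-fold, 190 and 184 were recovered, and false calls numbered 2 to 9. In the data, however, 79.5% of the 11367 genes passed between the cell lines. The simulated recovery may therefore differ from that of this comparison. NR shares were compared by exact permutation. Python 3.11.15 was used for other steps. Sequences came from GRCh37 with GENCODE release 44.

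The members and gene lists were chosen with earlier results of these data known. Named genes were all members, SRPK1, CLK1 and, in each list and contrast, the 3 largest differences among genes that passed, or the 3 lowest p-values where none did; under knockdown the text gives those over both cell lines. Cufflinks intervals are for single libraries and do not cover the spread between libraries. The limma intervals cover only the spread between these libraries, which may be technical. Alternatives were another pseudocount, no filter, another scaling, the highest row per symbol, no trend, a replicate block, no genes under 200 bp, NTC libraries only and each library left out.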

Additional observations from a re-analysis of the deposited data

How the results depend on the processing

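Between the cell lines the 10 genes were lower in A498 under each alternative, and 9 to 10 passed when 1 library was left out. SRSF10 lost its call when only the highest row per symbol was used (log2 difference -0.64, limma adjusted p = 0.0567, range over its alternatives 1.18e-05 to 0.0567). Member rows that passed numbered 7 with the NTC libraries only, where 7351 of all 14803 rows passed. In the NR to NM ratio, SRSF3 was the 1 member that passed. The number was 2 with a pseudocount of 1 (20 of all 361 genes) and 3 without the filter (180 of all 948 genes). It was 0 with the replicate block (4 of 361) and 0 with the NTC libraries only (0 of 361). SRSF6 passed with a pseudocount of 1 (limma adjusted p = 0.0387) and without the filter (0.0103), which also admitted SRSF1, whose NR row was at 0.00 FPKM. Over its alternatives the SRSF6 limma adjusted p ranged from 0.0103 to 0.278. The SRSF2 ratio was 2.99 without 786-O siRNA #2, where the NR value of 0.00 was the only one left for the 786-O knockdown.

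Replicate numbers were not taken as pairs, since with only 2 pairs in a cell line the deviations of same-numbered libraries correlated at -0.0048 in A498 and 0.0064 in 786-O (0.171 and 0.0227 without genes under 200 bp). With the replicate block, 10 member genes passed between the cell lines and 0 under knockdown. Knockdown calls of members were 0 under each alternative, while the number over all genes was 1 to 36 in place of 19.

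Differences that changed sign were small or from rows with unstable splits, and the cause was not tested. Under knockdown, SRSF11 was -0.27 with the highest row per symbol and SRSF4 -0.011 with median-ratio scaling. With 1 library left out the ranges were -0.013 to 0.10 for SRSF11, -0.022 to 0.025 for SRSF4, -0.0033 to 0.066 for SRSF5, -0.019 to 0.015 for SRSF9 and -0.10 to 0.075 for the SRSF6 ratio. Between the cell lines, the row NM_001078166 of SRSF1 was -0.22 and NR_036608 of SRSF2 -0.11 with the NTC libraries only, and the SRSF10 ratio was 0.094 with a pseudocount of 1 and -0.37 to 0.0043 with 1 library left out. The rows of SRSF10 ranged from -1.64 to 1.43 (NM_001191009), -1.94 to 0.96 (NM_006625) and -2.07 to 0.32 (NM_054016), and NM_004768 of SRSF11 from -0.038 to 0.48. The NR share of SRSF10 was 7.97% in A498 and 8.10% in 786-O when only the highest rows were counted. The 0 members past the threshold with single siRNA libraries became 5 and 8 rows in A498 and 7 and 8 in 786-O when each row was taken on its own, an alternative chosen after seeing the data.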
